A study of Mus musculus with 6 samples.

Results

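The *Cxcl12* chemokine axis was followed through 3 genes, the ligand *Cxcl12* and its receptors *Cxcr4* and *Ackr3*, in bulk RNA-seq of the cerebellum of mice at postnatal day 1. The genes were taken by name from a table of 54532 genes, and all 3 were among the 17505 genes that passed the filter on low counts. The control group (Ctrl) held 3 libraries of Tox3f/f littermates without Cre and the mutant group (cKO) 3 libraries of Nestin-cre;Tox3f/f conditional knockouts, so both groups carried the floxed *Tox3* allele in both copies. Nestin-cre is a transgene that drives Cre recombinase in cells of the nervous system and their precursors, and it directs the deletion of *Tox3*, which encodes an HMG-box nuclear protein, to those cells. Only the mutants carried the transgene, and its effect and that of the deletion cannot be told apart.

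Cxcl12 is a secreted chemokine that the meninges release over the surface of the developing cerebellum. Cxcr4 is a G protein-coupled receptor carried by granule neuron progenitors (GNPs), and signalling through it holds these progenitors in the external granule layer beneath the meninges and adds to their response to Sonic hedgehog. Ackr3, formerly Cxcr7, binds the same ligand, recruits beta-arrestin rather than G proteins and removes Cxcl12 from the extracellular space, which shapes the gradient that Cxcr4 reads.

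Each library held between 15391854 and 17178478 counts, and 3 counts, taken as the limit of detection, corresponded to between 0.173 and 0.1955 CPM (counts scaled to a common normalised library size). The *Tox3* level was 64.3, 63.0 and 64.4 CPM in Ctrl 1, 2 and 3 and 55.3, 63.2 and 59.2 CPM in cKO 1, 2 and 3. This gene-wide count does not check the labels, because transcripts that lack the deleted part can still be counted. *Atoh1*, the basic helix-loop-helix factor of granule progenitors, had 501, 491 and 481 counts in Ctrl and 10, 4 and 4 in cKO. Genes of the Y chromosome were read in Ctrl 1, cKO 1 and cKO 3 (203 to 253 CPM summed over 4 genes) and stood at most at 0.128 CPM in the other libraries, so the sexes were mixed in both groups.

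The promoter windows of the 3 genes (GRCm38.p6, from RefSeq, 250 bases before to 50 bases after the annotated start) are printed because Atoh1 was nearly lost from the mutant libraries and binds E-boxes, of the form CANNTG. Capitals mark matches to CANNTG and to TATAAA, each searched on both strands, and the sequences run 5′ to 3′ on the strand of the gene.
Cxcl12, chr6:117168285-117168584, plus strand: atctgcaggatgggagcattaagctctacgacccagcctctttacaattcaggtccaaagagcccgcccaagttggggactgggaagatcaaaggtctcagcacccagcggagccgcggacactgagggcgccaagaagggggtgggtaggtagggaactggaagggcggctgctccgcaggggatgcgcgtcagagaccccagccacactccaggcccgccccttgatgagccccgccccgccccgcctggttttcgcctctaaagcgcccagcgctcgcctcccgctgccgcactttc
Cxcr4, chr1:128592250-128592549, minus strand: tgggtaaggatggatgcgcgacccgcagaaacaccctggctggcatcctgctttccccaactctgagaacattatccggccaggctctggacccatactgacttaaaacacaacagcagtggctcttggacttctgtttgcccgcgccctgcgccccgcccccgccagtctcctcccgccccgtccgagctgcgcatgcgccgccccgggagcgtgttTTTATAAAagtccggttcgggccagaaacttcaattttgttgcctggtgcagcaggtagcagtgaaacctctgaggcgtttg
Ackr3, chr1:90203730-90204029, plus strand: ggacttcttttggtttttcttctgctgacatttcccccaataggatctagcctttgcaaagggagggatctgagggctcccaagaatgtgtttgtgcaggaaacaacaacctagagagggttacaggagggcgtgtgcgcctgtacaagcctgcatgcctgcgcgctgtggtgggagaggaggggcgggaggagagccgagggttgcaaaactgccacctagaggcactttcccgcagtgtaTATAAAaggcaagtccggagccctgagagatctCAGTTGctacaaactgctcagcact

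The *Ackr3* window held 1 match to CANNTG with the letters CAGTTG, whose first base lay at +26 from the start, and 1 match to TATAAA at -8. The *Cxcr4* window held a match to TATAAA at -30 on the strand of the gene and an overlapping match on the other strand at -32. The *Cxcl12* window held neither motif. Over 32851 promoters of the same length, 72.3% held CANNTG and 13.6% held TATAAA. The GC content was 64.7% for *Cxcl12*, 59.3% for *Cxcr4* and 54.0% for *Ackr3*, against a median of 52.7%. A match describes letters only, and none of these libraries measured binding.

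The data on the 3 genes differed from one another. *Ackr3* rose 1.57-fold in the mutant cerebella, *Cxcl12* lay 14.1% below the control level without passing the threshold, and the *Cxcr4* level was 1.04 times that of the controls with overlapping groups. Genes were called when edgeR's quasi-likelihood test gave a Benjamini-Hochberg adjusted p under 0.01 together with a log2 fold change beyond 0.5. By that rule 1 of the 3 genes was called higher in cKO, where 3.03% of all tested genes were. None was called lower by edgeR or DESeq2 (3.63% of all tested genes were by edgeR), with 1 lower at an unadjusted p under 0.05. Of all tested genes, 37.1% had an unadjusted p under 0.05 and 13.8% an adjusted p under 0.01 by edgeR in either direction, the background for all such counts. The groups did not overlap in the higher direction for 1 gene (20.4% of all tested genes) and in the lower direction for 1 gene (20.1%). Counts this small are not a result about the axis as a group, and each gene is therefore given on its own.

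*Cxcl12* (ENSMUSG00000061353) lies on chromosome 6 from 117168535 to 117181367, plus strand, in GRCm38, and its 4 annotated transcripts have 3 or 4 exons. Its counts were 2297, 2455 and 2292 in Ctrl and 2424, 2079 and 1876 in cKO. After normalisation the level was 150, 160 and 147 CPM in Ctrl 1, 2 and 3 and 140, 135 and 117 CPM in cKO 1, 2 and 3. All 3 mutant libraries lay below all 3 controls, with cKO 3 the lowest and cKO 1 close to the lowest control. The mean was 152 ± 6.73 CPM in Ctrl and 131 ± 12.2 CPM in cKO (SD, n = 3 each), a log2 fold change of -0.22 with a standard error of 0.07 and a 95% interval of -0.38 to -0.06. In percent this interval ran from -22.9 to -4.25. The edgeR adjusted p was 0.0456, so the gene missed the limits on p and on fold. The size rested in part on single libraries, since without cKO 3 the log2 fold change was -0.14 (edgeR adjusted p = 0.149) and without Ctrl 2 it was -0.18 (edgeR adjusted p = 0.141). In a bulk sample fewer cells of a type and less RNA per cell cannot be told apart, and this holds for every value given here. The labels do not say that each library came from a separate animal. The p-values therefore rest on the variation between these libraries, which need not be that between animals.

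*Cxcr4* (ENSMUSG00000045382) lies on chromosome 1 from 128588199 to 128592293, minus strand, with 2 transcripts of 2 exons each. It had 1081, 1017 and 989 counts in Ctrl and 1154, 1084 and 1151 in cKO. The level was 70.4, 66.2 and 63.5 CPM in Ctrl 1, 2 and 3 and 66.6, 70.6 and 71.7 CPM in cKO 1, 2 and 3. The groups overlapped, with cKO 1 inside the control range and Ctrl 1 inside the mutant range. The mean was 66.7 ± 3.46 CPM in Ctrl and 69.6 ± 2.71 CPM in cKO (SD, n = 3 each), with a log2 fold change of 0.06 and a standard error of 0.06 (edgeR adjusted p = 0.505). The 95% interval of the difference ran from -0.08 to 0.20 on the log2 scale, or from -5.08% to 14.8%. A decrease by more than 5.08% therefore lay outside this 95% interval of the difference. Its width rests on the variation between these libraries, which need not be that between animals.

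*Ackr3* (ENSMUSG00000044337) lies on chromosome 1 from 90203980 to 90216751, plus strand, with 2 transcripts of 2 or 3 exons. It had 377, 333 and 357 counts in Ctrl and 633, 599 and 532 in cKO. The level was 24.5, 21.7 and 22.9 CPM in Ctrl 1, 2 and 3 and 36.5, 39.0 and 33.1 CPM in cKO 1, 2 and 3. Every mutant library stood above every control, and the lowest of them exceeded the highest control by 8.59 CPM. The mean rose from 23.0 ± 1.44 to 36.2 ± 2.96 CPM (SD, n = 3 each), a log2 fold change of 0.65 with a standard error of 0.09 and a 95% interval of 0.45 to 0.85 (edgeR adjusted p = 0.000747). By p-value it ranked 706 of 17505 genes. The call was made in all 16 other fits, with a log2 fold change between 0.59 and 0.71, and with the Y-chromosome level as a covariate it was 0.66. No other gene of the table overlapped any of the 3 genes in position.

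**Figure D1:**
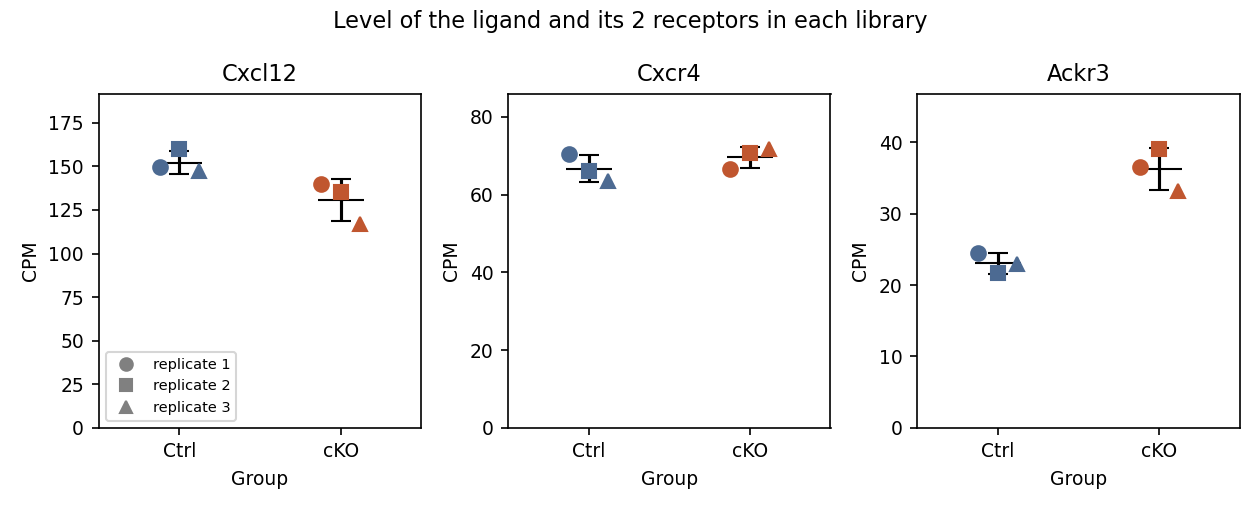
Level of *Cxcl12*, *Cxcr4* and *Ackr3* in CPM (vertical axes, from 0) for the 3 Ctrl and 3 cKO libraries, with symbols for the replicate number and bars for the mean and SD. The groups overlap for *Cxcr4*, all cKO points lie below the Ctrl points for *Cxcl12* (117 to 140 against 147 to 160 CPM), and all lie above them for *Ackr3* (33.1 to 39.0 against 21.7 to 24.5 CPM).

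Levels were compared between the genes on the FPKM scale, which divides by gene length. *Cxcr4* stood at 38.5, 36.3 and 34.8 FPKM in Ctrl and 36.8, 38.6 and 39.6 FPKM in cKO. *Cxcl12* stood at 18.1, 19.4 and 17.8 FPKM in Ctrl and 17.1, 16.4 and 14.3 FPKM in cKO. *Ackr3* stood at 7.26, 6.42 and 6.79 FPKM in Ctrl and 10.9, 11.5 and 9.87 FPKM in cKO. The order of the FPKM levels was *Cxcr4*, *Cxcl12*, *Ackr3* in all 6 libraries, and no pair of neighbours overlapped in either group. The signalling receptor thus stood highest and the scavenging receptor lowest per length. That length was 8176 bases for *Cxcl12*, 1808 for *Cxcr4* and 3348 for *Ackr3*. It covers the exons of all annotated transcripts together, and the transcripts in use were not measured. By counts *Cxcl12* stood above *Cxcr4* in all 6 libraries, so the order of these 2 genes depends on the length used.

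Ratios within a library do not depend on the scaling between libraries, and 3 were computed. There were 6.09, 7.37 and 6.42 *Cxcl12* counts per *Ackr3* count in Ctrl and 3.83, 3.47 and 3.53 in cKO. There were 2.87, 3.05 and 2.77 *Cxcr4* counts per *Ackr3* count in Ctrl and 1.82, 1.81 and 2.16 in cKO. Both ligand and signalling receptor were thus lower relative to *Ackr3* in every mutant library. On the log2 scale the difference was -0.87 with a standard error of 0.09 for *Cxcl12* to *Ackr3* and -0.59 with a standard error of 0.09 for *Cxcr4* to *Ackr3*. There were 0.471, 0.414 and 0.432 *Cxcr4* counts per *Cxcl12* count in Ctrl and 0.476, 0.521 and 0.614 in cKO, where cKO 1 lay just above Ctrl 1. This difference was 0.29 with a standard error of 0.12. For all 3 ratios the groups did not overlap and the two-sided exact permutation test gave p = 0.1, which is the smallest it can give with 3 libraries against 3 and stayed 0.1 after Benjamini-Hochberg adjustment over the 3 ratios. Per length, as the geometric mean of FPKM ratios, *Cxcl12* exceeded *Ackr3* 2.71-fold in Ctrl and 1.48-fold in cKO, *Cxcr4* exceeded *Ackr3* 5.36-fold and 3.57-fold, and *Cxcr4* exceeded *Cxcl12* 1.98-fold and 2.41-fold. By these ratios per length, the closest pair was *Cxcr4* and *Cxcl12* in Ctrl and *Cxcl12* and *Ackr3* in cKO.

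**Figure D2:**
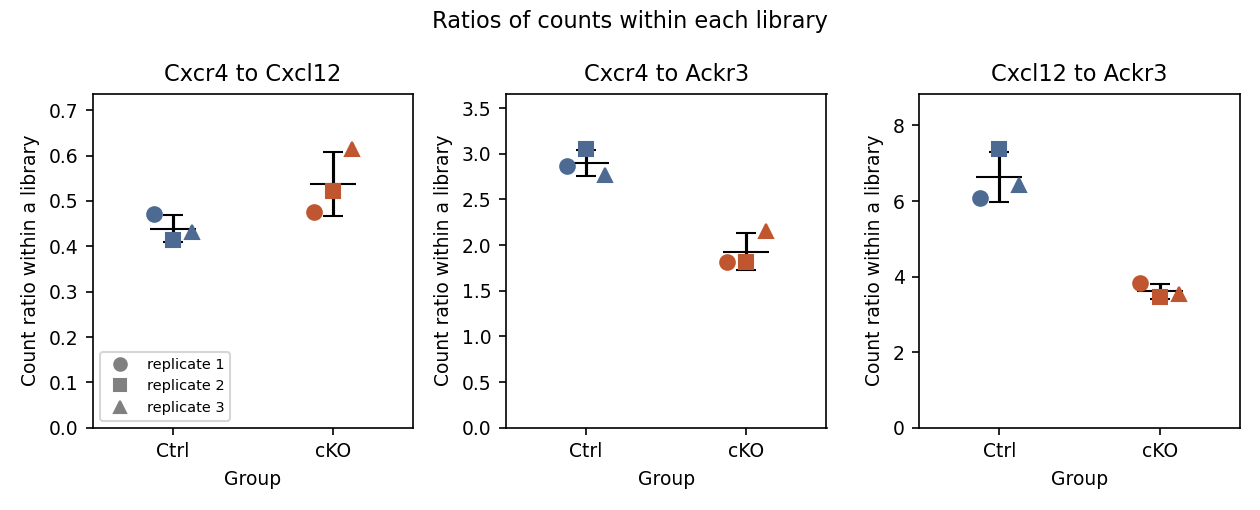
Ratio of counts within each library (vertical axes, from 0) for the 3 pairs of genes, with symbols for the replicate number and bars for the mean and SD of each group. *Cxcl12* to *Ackr3* lay between 6.09 and 7.37 in Ctrl and between 3.47 and 3.83 in cKO, and *Cxcr4* to *Cxcl12* lay between 0.414 and 0.471 in Ctrl and between 0.476 and 0.614 in cKO.

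The other chemokines gave the setting for *Cxcl12*. Of 38 ligands listed, 11 passed the filter, and the 27 below it had at most 14 counts in a library, 5 of them none at all. Of the 11, 1 was called higher and none lower by edgeR or DESeq2, with 6 at an unadjusted p under 0.05 in either direction and a median log2 fold change of 0.30, against -0.01 over all tested genes. Of all tested genes, 3.03% were called higher and 37.1% had an unadjusted p under 0.05 by edgeR. With library size alone in place of TMM, 2 ligands were called higher. The called ligand was *Pf4*, platelet factor 4, with 53, 75 and 45 counts in Ctrl and 124, 118 and 109 in cKO. It rose by 0.95 on the log2 scale with a standard error of 0.20 (edgeR adjusted p = 0.00728). The *Pf4* call was lost in 6 of 16 other fits, namely without Ctrl 1, Ctrl 3, cKO 1, cKO 2 or cKO 3 and with limma on unfiltered log2(FPKM + 1), and its log2 fold change lay between 0.79 and 1.18.

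*Cx3cl1*, the membrane-bound neuronal ligand of the microglial receptor Cx3cr1, had 20.5, 20.8 and 20.5 CPM in Ctrl and 28.1, 27.5 and 30.8 CPM in cKO. Its log2 fold change of 0.48 stayed under the fold threshold at an edgeR adjusted p of 0.00202. *Ccl27a*, which has near-identical copies that may share reads, stood at 41.7 ± 1.02 CPM in Ctrl and 49.1 ± 2.22 CPM in cKO, and *Ccl25* at 10.2 ± 1.85 and 7.72 ± 0.685 CPM (SD, n = 3 each), neither called. The remaining ligands with at least 1 CPM in a group, *Cxcl14*, *Ccl28*, *Cxcl16*, *Ccl6*, *Ccl9* and *Ccl24*, overlapped between the groups and had mean levels from 0.669 to 12.6 CPM. The largest log2 fold change among them was that of *Cxcl16*, 0.77 with a standard error of 0.30 (edgeR adjusted p = 0.0943), not called. *Cxcl16* stood at 2.15, 1.95 and 1.41 CPM in Ctrl and 3.75, 1.96 and 3.67 CPM in cKO. The fold change was above 0 for 7 of the 11 ligands and below 0 for 4, *Cxcl12* among them. The share of *Cxcl12* in all counts of the ligand list was 59.5%, 61.0% and 59.1% in Ctrl and 53.9%, 53.3% and 48.6% in cKO. These shares are of counts, not per length.

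Of 25 receptors listed, 10 passed the filter. *Ackr3* was the one called higher, where 3.03% of all tested genes were, and none was called lower by edgeR or DESeq2. At an unadjusted p under 0.05 by edgeR there were 2, *Ackr3* and *Ackr2*, where 37.1% of all tested genes were. The median log2 fold change of the 10 was 0.07. The other atypical receptors differed from *Ackr3* in value. *Ackr1*, which binds many inflammatory chemokines on venous endothelium, had 40.9, 38.0 and 36.3 CPM in Ctrl and 41.2, 38.3 and 41.7 CPM in cKO (log2 fold change 0.07, edgeR adjusted p = 0.537). *Ackr2*, a scavenger of inflammatory CC chemokines, had 15, 52 and 25 counts in Ctrl and 18, 15 and 15 in cKO, with overlapping groups. Of the signalling receptors, *Cx3cr1* stood at 12.4 ± 0.99 and 14.5 ± 1.39 CPM, *Cmklr1* at 3.16 ± 0.513 and 3.06 ± 0.399 CPM, *Ccr10* at 1.06 ± 0.719 and 1.25 ± 0.0878 CPM and *Ccr1* at 0.756 ± 0.0782 and 1.02 ± 0.508 CPM (Ctrl and cKO, SD, n = 3 each). *Gpr182*, an atypical chemokine receptor of endothelium that also binds Cxcl12, stood at 5.72 ± 0.873 CPM in Ctrl and 5.07 ± 0.31 CPM in cKO with overlapping groups. None of these 5 was called.

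The share of *Ackr3* in all counts of the receptor list was 15.2%, 13.8% and 15.2% in Ctrl and 21.1%, 22.1% and 18.8% in cKO. That of *Cxcr4* was 43.6%, 42.2% and 42.0% in Ctrl and 38.4%, 40.0% and 40.7% in cKO. The *Cxcr4* share was lower in every mutant library although its own level overlapped between the groups, and the summed level of the list was 151 to 162 CPM in Ctrl and 173 to 177 CPM in cKO.

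**Figure D3:**
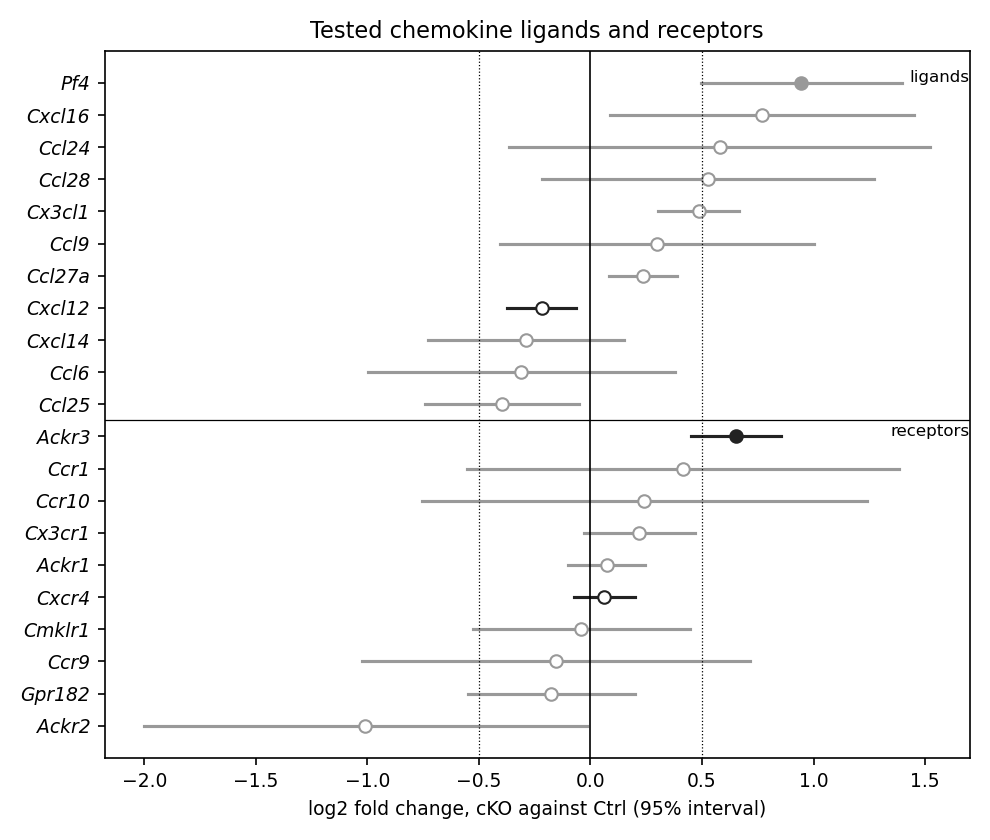
Log2 fold change of cKO against Ctrl (horizontal axis) with its 95% interval for the 11 tested chemokine ligands and 10 tested receptors, members of the axis in black, filled symbols for called genes and dotted lines at 0.5 and -0.5. *Ackr3* at 0.65 and *Pf4* at 0.95 are the called genes, *Cxcr4* lies at 0.06 and *Cxcl12* at -0.22.

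Genes of Cxcl12 proteolysis and of partners of the ligand and its receptors were read next. The list is wider than genes that act on Cxcl12 or bind it, as it also holds *Mif*, *Cd74*, *Adm* and *Timp2*. Of 15 listed, 13 passed the filter and 3 were called higher, where 3.03% of all tested genes were. None was called lower by edgeR or DESeq2, and the median log2 fold change over the 13 was 0.23. *Mmp2*, a gelatinase that cleaves the N-terminus of Cxcl12 and ends its activity on Cxcr4, rose from 12.2, 9.18 and 10.8 CPM in Ctrl to 16.9, 16.9 and 19.9 CPM in cKO (log2 fold change 0.74 with a standard error of 0.13, edgeR adjusted p = 0.00223). *Sdc4*, a cell surface heparan sulfate proteoglycan to which Cxcl12 binds, rose from 184, 202 and 205 counts to 291, 316 and 338 counts (log2 fold change 0.61 with a standard error of 0.11, edgeR adjusted p = 0.00345). *Gpc3*, a heparan sulfate proteoglycan held in the membrane by a lipid anchor, rose from 39.6, 38.9 and 29.7 CPM to 64.4, 55.9 and 50.9 CPM (log2 fold change 0.66 with a standard error of 0.12, edgeR adjusted p = 0.00351). In all 3 the groups did not overlap. This held in the higher direction for 6 of the 13 genes (20.4% of all tested genes). The calls were less firm than that of *Ackr3*. All were lost without Ctrl 3 and with limma on unfiltered log2(FPKM + 1), those of *Mmp2* and *Sdc4* also without cKO 3, that of *Sdc4* also without Ctrl 1 or Ctrl 2, and that of *Gpc3* also without cKO 1. *Timp2*, a tissue inhibitor of metalloproteinases, was named after its value had been seen. It stood at 208, 181 and 181 CPM in Ctrl and 259, 239 and 246 CPM in cKO. Its log2 fold change of 0.38 (standard error 0.06, edgeR adjusted p = 0.00174) stayed under the fold threshold.

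Downstream of the receptors no gene was called. Among 20 tested genes of receptor trafficking and desensitization, none was called by edgeR or DESeq2 and the median log2 fold change was -0.03. An unadjusted p under 0.05 by edgeR was reached by 5 (37.1% of all tested genes). The groups did not overlap for 2 in the higher direction (20.4% of all tested genes) and 5 in the lower direction (20.1%). *Arrb1*, which encodes beta-arrestin 1, the adaptor recruited by both receptors, stood at 183, 190 and 205 CPM in Ctrl and 259, 236 and 251 CPM in cKO (0.37 with a standard error of 0.06, edgeR adjusted p = 0.00125), under the fold threshold. *Itch*, the ubiquitin ligase that sends activated Cxcr4 to lysosomes, stood at 49.6, 56.2 and 52.9 CPM in Ctrl and 40.8, 44.8 and 42.2 CPM in cKO (-0.31 with a standard error of 0.07, edgeR adjusted p = 0.0126). For both genes the groups did not overlap, with *Arrb1* higher and *Itch* lower in cKO.

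Among 42 tested genes of signal transduction and migration, none was called by edgeR or DESeq2, 17 had an unadjusted p under 0.05 (37.1% of all tested genes did) and the median log2 fold change was 0.06. The fold change was above 0 for 29 and below 0 for 13. The groups did not overlap for 14 in the higher direction (20.4% of all tested genes) and 7 in the lower direction (20.1%). An edgeR adjusted p under 0.01 was reached by 9 (13.8% of all tested genes), of which 5 were higher and 4 lower in cKO. The 2 with the smallest p were both lower. *Bcar1*, the adaptor p130Cas of focal adhesions, stood at 128, 115 and 117 CPM in Ctrl and 87.5, 84.7 and 82.6 CPM in cKO (-0.50 with a standard error of 0.06, edgeR adjusted p = 0.000268), just inside the fold threshold. *Ephb2*, a receptor tyrosine kinase for ephrin-B ligands, stood at 274, 275 and 284 CPM in Ctrl and 216, 198 and 214 CPM in cKO (-0.41 with a standard error of 0.05, edgeR adjusted p = 0.000318). The count of called genes in this list was not fixed, since without Ctrl 2 or without cKO 1 it was 2 lower, and without Ctrl 3 or with the Y-chromosome level as a covariate it was 1 lower.

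*Cxcl12* is taken as a meningeal ligand and *Cxcr4* as a receptor of granule progenitors, and marker lists of these and other cells were set beside them. No listed marker that passed the filter was at 0 in any library. Of all tested genes, 3.03% were called higher and 3.63% lower, the background for the counts of every marker list. Of 20 meningeal markers, 6 were called higher and none lower, with a median log2 fold change of 0.46 and a summed level of 2120 to 2160 CPM in Ctrl and 2570 to 3120 CPM in cKO. *Col1a2*, *Col1a1* and *Ogn*, which encode matrix proteins of fibroblasts, rose by 0.77, 0.85 and 1.22 on the log2 scale. The fold change was below 0 for 3 of the 20, *Col3a1* at -0.01, *Dcn* at -0.05 and *Lum* at -0.16, which also encode matrix proteins of fibroblasts, overlapped between the groups and were named after their values had been seen. *Col3a1* stood at 337 CPM in Ctrl and 335 CPM in cKO. Of 16 endothelial markers, none was called by edgeR or DESeq2 and 4 had an unadjusted p under 0.05 by edgeR (37.1% of all tested genes did). Their median was -0.09 and the summed level was 551 to 609 CPM in Ctrl and 546 to 560 CPM in cKO. *Erg* stood at -0.38, *Kdr* at -0.23 and *Slco1c1* at 0.24. Of 10 mural cell markers, 1, *Vtn*, was called higher at 0.69, with *Notch3* at 0.39 and *Acta2* at 0.82 not called, a median of 0.17 and a summed level of 465 to 498 CPM in Ctrl and 558 to 573 CPM in cKO. With DESeq2, with the replicate block or with the filter of at least 1 count in any library, 2 mural cell markers were called higher.

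*Cxcl12* lay below the mean of the meningeal list, as a description with no test, and on the same side of 0 as 3 of its 20 markers. The difference between the *Cxcl12* level and the mean log2 level of the 20 meningeal markers, set to 0 at the control mean, lay between -0.01 and 0.02 in Ctrl and between -0.81 and -0.62 in cKO, a mean difference of -0.73. Against the endothelial list the same difference lay between -0.05 and 0.03 in Ctrl and between -0.31 and -0.05 in cKO, with a mean of -0.16. *Cxcl12* thus lay nearer to the endothelial than to the meningeal list in these libraries, but this was not particular to endothelium. Among the lists described below, the mean difference was also -0.16 for erythrocytes, and it was 0.39 for postmitotic granule neurons. It was -0.46 for mural cells. Only granule neuron progenitors, at 1.06, and the oligodendrocyte lineage lay farther from *Cxcl12* than the meningeal list did. The part of each cell type in the *Cxcl12* level was not tested.

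Of 18 markers of granule neuron progenitors, 15 were called lower and none higher, with a median log2 fold change of -1.07 and a summed level of 2800 to 2900 CPM in Ctrl and 1360 to 1420 CPM in cKO. The homeobox gene *Barhl1* fell by 2.59 and *Mfap4* by 2.10 on the log2 scale. *Atoh1* had a log2 fold change of -6.40. Of 11 tested markers of postmitotic granule neurons, 6 were called lower and none higher, with a median of -0.60 and a summed level of 2290 to 2360 CPM in Ctrl and 1690 to 1780 CPM in cKO. *Neurod1*, *Nhlh1* and *Rbfox3* fell by 1.16, 1.78 and 0.73. *Cxcr4*, in contrast, was not called. Relative to the progenitor list, *Cxcr4* lay between -0.03 and 0.05 in Ctrl and between 1.26 and 1.41 in cKO on the log2 scale, a mean difference of 1.34, and relative to postmitotic granule neurons the mean difference was 0.68. Which cells carried the *Cxcr4* transcripts cannot be read from bulk libraries.

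*Ackr3* lay nearer to marker lists that were higher in cKO than to those of granule cells, which follows from its own rise. The nearness was not particular to any cell type. Of 12 Purkinje cell markers 7 were called higher (median 0.56, summed level 1910 to 2040 CPM in Ctrl and 2570 to 3080 CPM in cKO), with the smallest p for *Skor2* at 0.78, *Car8* at 0.63 and *Calb1* at 0.68. Of 12 markers of Bergmann glia and astrocytes 4 were called higher (median 0.34, 4510 to 4630 CPM and 5680 to 6230 CPM), with the smallest p for *Gdf10* at 1.18, *Aldoc* at 0.67 and *Gfap* at 1.42. Of 12 markers of the oligodendrocyte lineage 10 were called higher (median 0.84, 789 to 860 CPM and 1140 to 1210 CPM), with the smallest p for *Cnp* at 1.08, *Mbp* at 0.69 and *Sox10* at 0.97. In the Purkinje list and in the oligodendrocyte list 1 marker each ran the other way without overlap of the groups, *Lhx1* at -0.38 (edgeR adjusted p = 0.000778) and *Pdgfra*, a gene of oligodendrocyte precursors, at -0.45 (edgeR adjusted p = 0.000307), both short of the fold threshold and named after their values had been seen. The mean difference between *Ackr3* and the list on the log2 scale was 0.17 for Purkinje cells, 0.20 for Bergmann glia and astrocytes, -0.13 for the oligodendrocyte lineage, 0.14 for meninges, 0.41 for mural cells and 0.71 for endothelium. It was 0.26 for microglia, 0.30 for choroid plexus, 0.71 for erythrocytes, 1.26 for postmitotic granule neurons and 1.93 for granule neuron progenitors. The part of each cell type in the *Ackr3* level was not tested.

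Another 3 lists were read for cells that may be present in dissected tissue. Of 13 microglial markers, 1, *C1qa* at 0.59, was called higher, with *Csf1r* at 0.39 and *C1qc* at 0.46 not called, a median of 0.39 and a summed level of 148 to 153 CPM in Ctrl and 191 to 202 CPM in cKO. The *C1qa* call was lost without Ctrl 1, cKO 1 or cKO 3. Of 9 choroid plexus markers, 1 was called lower, *Otx2* at -1.16, with *Kcnj13* at 1.74 and *Kl* at 0.94 not called, a median of 0.88 and a summed level of 204 to 294 CPM in Ctrl and 126 to 911 CPM in cKO. Of 5 tested erythrocyte genes none was called by edgeR or DESeq2 and none had an unadjusted p under 0.05, with *Hba-a1* at -0.28, *Alas2* at 0.10 and *Hbb-bs* at 0.04, a median of 0.04 and a summed level of 98.8 to 106 CPM in Ctrl and 82.4 to 118 CPM in cKO. Choroid plexus markers called higher numbered 4 without cKO 2, and also 4 with all libraries and the filter of at least 1 count in any library. Without cKO 2, 1 erythrocyte gene was called lower. The choroid plexus list was lowest in cKO 2 and highest in cKO 3, whereas *Ackr3* was highest in cKO 2 and lowest in cKO 3 among the mutants.

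**Figure D4:**
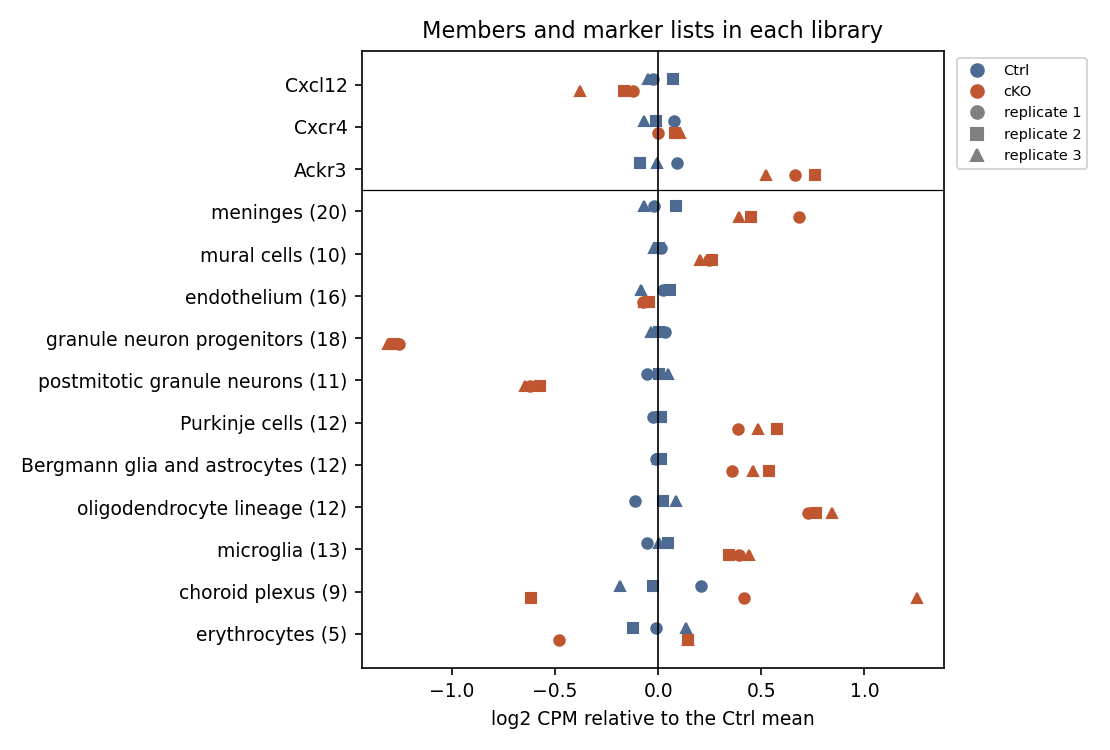
Log2 CPM of *Cxcl12*, *Cxcr4* and *Ackr3* and mean log2 CPM of each marker list (number of genes in parentheses) in each library, relative to the Ctrl mean at 0, with colours for the groups and symbols for the replicate number. In cKO, *Cxcl12* lies between -0.38 and -0.12 while the meningeal list lies between 0.39 and 0.68, and *Cxcr4* lies between -0.00 and 0.11 while the progenitor list lies between -1.31 and -1.26.

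The genes whose level followed each member most closely were ranked by Pearson r of log2 CPM over the 6 libraries, among 12068 protein-coding genes whose mean level reached 5 CPM. The 6 points share the contrast between the groups, so r is a description. For *Ackr3*, r was above 0.9 for 1129 genes (9.36%), and the 5 highest were *Arrdc4* and *S100a1* at 0.9955, *Negr1* at 0.9954, *Lhfp* at 0.995 and *Pomt2* at 0.9945. For *Cxcl12* there were 202 such genes (1.67%), led by *Rbm14* at 0.9956, *Dph6* at 0.9939, *Sfxn1* at 0.9933, *Cab39* at 0.9894 and *Adamtsl3* at 0.9861. For *Cxcr4* there were 54 (0.447%), led by *Tyk2* at 0.9854, *Abhd2* at 0.9786, *Klhl3* at 0.9761, *Kyat3* at 0.9712 and *Dis3l2* at 0.9699. Of these 15 genes, *S100a1* and *Lhfp* were called higher and the rest were not called. *Ackr3*, the called gene, had the most neighbours above 0.9 and *Cxcr4* the fewest.

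The direction of all 3 genes was kept in every alternative fit. *Cxcl12* lay between -0.27 and -0.14 on the log2 scale with adjusted p-values between 0.00531 and 0.17 over 17 alternatives in edgeR, DESeq2 and limma, and it passed only where the threshold was relaxed to an adjusted p under 0.05 with no limit on the fold. *Cxcr4* lay between 0.03 and 0.10 with adjusted p-values between 0.336 and 0.82, and *Ackr3* between 0.59 and 0.71 with adjusted p-values between 1.86e-08 and 0.0075 over the same alternatives.

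**Figure D5:**
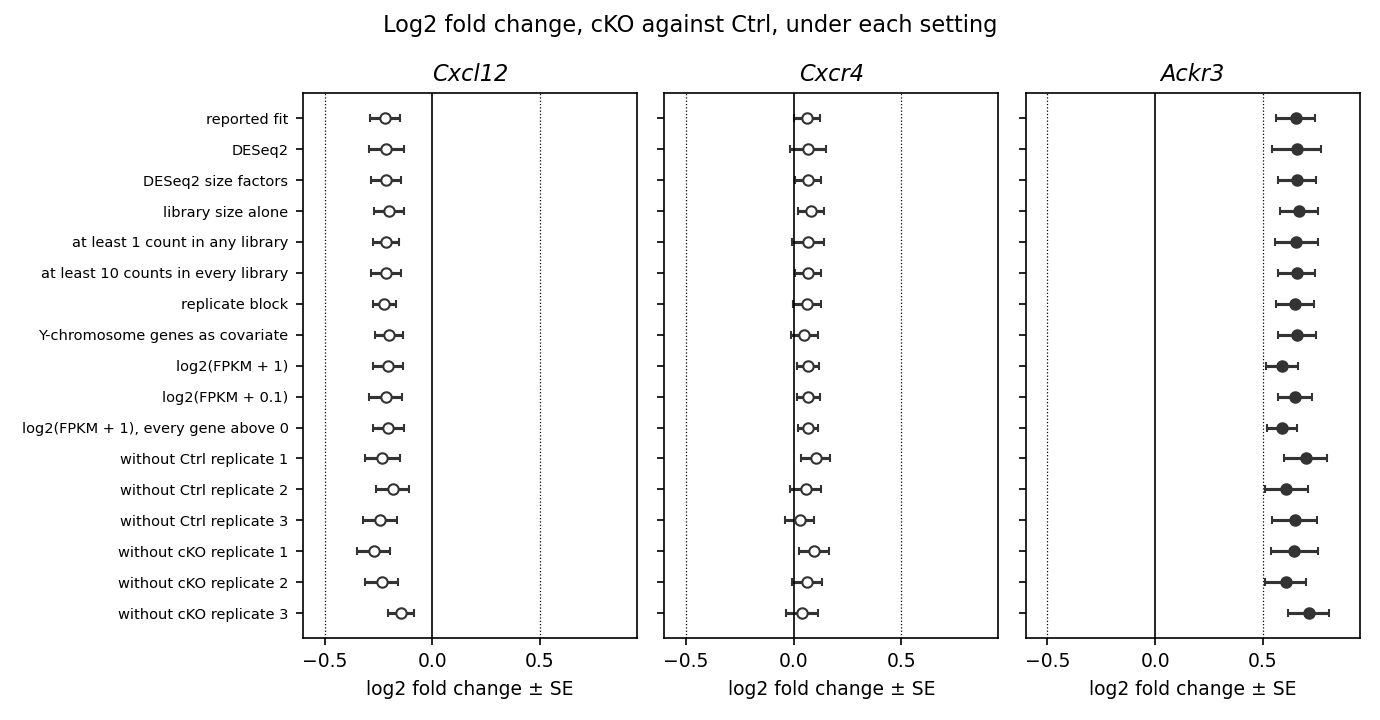
Log2 fold change of cKO against Ctrl (horizontal axes) with its standard error for each gene under the reported fit and 16 other fits, filled symbols for called values and dotted lines at 0.5 and -0.5. *Ackr3* stays beyond 0.5 in each fit, from 0.59 to 0.71, *Cxcl12* stays between -0.27 and -0.14, and *Cxcr4* stays between 0.03 and 0.10.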

How the data were processed

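Bulk mRNA of P1 cerebellum was measured in 6 libraries, 3 per group, grouped by their labels. The authors deposited raw counts per gene and FPKM values. Reads with adapters or of low quality had been removed, the rest aligned to mm10 with HISAT2 2.0.5 and counted with featureCounts 1.5.0-p3. The deposited FPKM values divide those counts by gene length and library size. Annotation release, strand setting and treatment of multi-mapping reads are not given in the sources used here, so near-identical or overlapping genes may share reads. Coordinates were those of the table, and matched GENCODE M21 for the 3 genes.

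The counts of cKO were compared with those of Ctrl by edgeR 4.0.16 (R 4.3.3) on all 17505 genes kept by filterByExpr, which held 99.8% of the counts, with TMM scaling and the quasi-likelihood test. Calls followed the study's own thresholds, 0.01 for the Benjamini-Hochberg adjusted p and 0.5 for the size of the log2 fold change. The common dispersion was 0.0105. Same-group libraries differed by more than sampling noise (chi-square per gene 3.64 to 10.1), so none was a copy. The detection limit covers counting error only. The alternatives were DESeq2 1.42.0, its size factors or library size in place of TMM, other filters (at least 1 count in any library, or 10 in every library), a replicate block, the Y-chromosome level as a covariate, limma 3.58.1 on log2(FPKM + 1) and log2(FPKM + 0.1), a relaxed threshold and each library left out. Their use on the gene lists was decided after the data had been seen. The code was tested on simulated data.

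The 3 genes and the hand-written lists were chosen with earlier results of these data known, so lists are described by counts and medians without a test. Named were the 3 genes, *Tox3* and *Atoh1*, chemokine ligands and receptors that reached a mean of 1 CPM in a group, the called genes of each other pathway list (up to 5, otherwise the 2 with the smallest p), the 3 markers of each list with the smallest p, and for each of the 3 genes the 5 protein-coding genes with the highest r.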

Additional observations from a re-analysis of the deposited data

How the results depend on the processing

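The direction of *Cxcl12*, *Cxcr4*, *Ackr3* and the 3 ratios was kept under every alternative run, and the call of *Ackr3* too. *Cxcl12*, at -0.22, passed with the threshold relaxed to an adjusted p under 0.05 and no fold limit. That threshold also gave 2252 genes called lower and 2136 called higher, against 635 and 530. With log2(FPKM + 1) and limma, 330 genes were called higher, and without a filter on low values 176 were called higher and 286 lower. Leaving out 1 library gave between 349 and 569 genes called higher, the fewest without cKO 3, and the cause was not tested. The largest shift of the median log2 fold change over all genes was to -0.03, with every gene of at least 1 count tested.

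Pairing of the libraries by replicate number was not shown. The deviations of same-numbered libraries from their group means correlated at 0.243, 0.265 and -0.163, and only number 2 correlated best with its own. With 3 libraries per group these values cannot exclude pairing. With the replicate block the log2 fold change was -0.22 for *Cxcl12* (edgeR adjusted p = 0.0135), 0.06 for *Cxcr4* and 0.65 for *Ackr3* (edgeR adjusted p = 0.000589), and 561 genes were called higher and 696 lower. At the depth of these libraries 27 ligands and 15 receptors fell below the filter and were not tested, and the cause of their low counts was not examined. The lowest count of the 3 genes was 333.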

Other observations

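The choroid plexus list varied between libraries of the same group more than any of the 3 chemokine genes did. *Ttr*, the transthyretin gene of choroid plexus epithelium, had 2016, 1558 and 1055 counts in Ctrl 1, 2 and 3 and 3137, 93 and 11412 counts in cKO 1, 2 and 3. The 2 mutant libraries at the ends of that range, cKO 2 and cKO 3, also held the highest and the lowest *Ackr3* level of the mutants, at 39.0 and 33.1 CPM, and the relation was not tested. *Cxcl11*, another chemokine that binds Ackr3, had 3, 0 and 0 counts in Ctrl and 2, 5 and 0 in cKO. These values were at or near the detection limit of 3 counts in each library. *Cxcl11* was looked up after the values of the list had been seen.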
